A study of Mus musculus with 15 samples.

Results

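The SLC1 family holds 5 transporters in this account, Slc1a1, Slc1a2, Slc1a3, Slc1a4 and Slc1a5, taken by gene symbol from an Affymetrix mouse array. They are 5 of the 12393 genes with a probe set of their own on the array and are read by 11 of its 22690 probe sets. The family was chosen by measured values of these same samples, the opposite directions of Slc1a1 and Slc1a2 between the groups, so the values of that pair are a description and carry no test. RNA came from neural stem cells of the subventricular zone, the stem cell niche along the lateral ventricles, dissected from 6-month-old female C57Bl6/J mice and passaged as neurospheres. The 15 samples form 3 groups of 5. Undifferentiated cells were grown with the growth factors bFGF and EGF, and the other groups were taken 12 h or 24 h after the cells were moved to poly-D-lysine in medium with 5% fetal calf serum and without growth factors. Loss of growth factors, serum and the new surface came together and cannot be told apart here. The labels do not tell whether the 5 samples in a group were independent cultures. The p-values therefore cover the variation among these samples only, and part or all of it may be technical. In these bulk samples, fewer cells of a type and less RNA per cell cannot be told apart.

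SLC1 transporters use the sodium gradient to move amino acids into cells. Slc1a1 (EAAC1), Slc1a2 (GLT-1) and Slc1a3 (GLAST) carry glutamate and aspartate. In the brain Slc1a2 and Slc1a3 are known as transporters of astrocytes, Slc1a3 also of radial glia and neural stem cells. Slc1a1 is known as a transporter of neurons, though not of neurons alone, and also brings in cysteine for glutathione. Slc1a4 (ASCT1) and Slc1a5 (ASCT2) exchange neutral amino acids, serine above all for Slc1a4 and glutamine for Slc1a5, and proliferating cells are known for high glutamine uptake.

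At 24 h, Slc1a1 mRNA was 9.52-fold higher than in undifferentiated cells, Slc1a4 mRNA was 2.48-fold lower and Slc1a5 mRNA was 1.74-fold lower. Slc1a5 and Slc1a2 were dim: the mean of Slc1a5 over all arrays lay below the expression filter, the 40th percentile of probe set means, and that of Slc1a2, which was 1.37-fold lower at 24 h, just above it. Slc1a3 showed no change that passed a test. Levels are given on a log2 scale whose zero point is unknown, so a level is no amount of mRNA. Differences are taken between samples of the same probe set. Across probe sets, levels are only ranked, as in the filter and the word dim, or summed over fixed lists of markers. Such a sum leans on its brightest probe sets and is compared between arrays only.

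Each value below rests on the sample titles for its group, and the labels conflict here. Titles and described array files carry unequal codes in 13 of 15 samples, and following the files instead would put 8 samples in another group. The file codes are the same 15 codes as in the titles, but set in ascending order down the list of samples. The title codes are not in that order, and groups follow the titles here. With groups by file codes, the 24 h differences of Slc1a4 and Slc1a5 did not pass (-0.82 and -0.41, limma adjusted p = 0.9998 and 1), that of Slc1a1 was 0.26, and 0 of 7909 genes were called at 24 h, with 118 at an unadjusted p under 0.05. Title codes end in 1 of 3 suffixes, called A, B and C here, which hold 5, 6 and 4 samples and cut across the groups. The array medians ran from 0.287 to 0.453 on the deposited log10 scale, and the 12 h replicates 3 and 4 were the closest pair of arrays, with an SD of 0.150 between them on the log2 scale. Signal at the 3' end of beta-actin over that at its 5' end is higher where RNA is less intact. This actin ratio was 1.95 ± 0.238 in undifferentiated cells, 2.36 ± 0.148 at 12 h and 2.78 ± 0.365 at 24 h (SD, n = 5 each), and moved with time. The same ratio for Gapdh overlapped between the groups. It ran from 0.98 to 1.52 in undifferentiated cells, 1.19 to 1.40 at 12 h and 1.23 to 1.45 at 24 h. With the actin ratio as a covariate, 13 of 7909 genes were called at 24 h, against 2536 without it. That ratio ran from 1.63 to 2.22 in undifferentiated arrays and from 2.23 to 3.21 at 24 h, with no overlap. Such a fit cannot tell the ratio and the time apart, so calls lost in it do not show which of them the differences follow. Above the expression filter, which 7909 of 12393 genes passed, were 13 of 13 neural stem and progenitor, 17 of 17 astrocyte and 11 of 12 oligodendrocyte lineage markers on the array.

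The promoters of Slc1a1 and Slc1a4 are shown first because these genes had the largest differences of the family and in opposite directions. RefSeq windows on build GRCm38.p6, from 250 bases before to 50 after the annotated start, were found for 4 of the 5 members, and Slc1a5 was not among them. Capitals mark matches on either strand to GGGCGG, the GC box, and to TGATGNAA, the element through which the transcription factor ATF4 is known to act on amino acid genes. Slc1a1 lies at chr19:28834885-28835184 on the plus strand and Slc1a4 at chr11:20332664-20332963 on the minus strand.
Slc1a1: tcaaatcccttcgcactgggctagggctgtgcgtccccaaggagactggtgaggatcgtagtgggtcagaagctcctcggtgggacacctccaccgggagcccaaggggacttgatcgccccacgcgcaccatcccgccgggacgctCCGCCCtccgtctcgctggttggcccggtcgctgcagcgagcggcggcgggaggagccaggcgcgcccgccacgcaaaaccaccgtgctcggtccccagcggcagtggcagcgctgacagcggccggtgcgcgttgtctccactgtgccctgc
Slc1a4: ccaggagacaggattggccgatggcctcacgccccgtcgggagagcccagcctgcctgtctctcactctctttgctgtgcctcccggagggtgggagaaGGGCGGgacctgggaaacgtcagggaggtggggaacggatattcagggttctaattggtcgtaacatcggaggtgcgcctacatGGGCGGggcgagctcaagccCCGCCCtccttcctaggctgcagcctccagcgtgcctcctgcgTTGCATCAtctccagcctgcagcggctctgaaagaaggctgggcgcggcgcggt

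The Slc1a4 window held the ATF4-type element once, in reverse orientation, beginning 4 bases before the start and running across it. Of 32851 RefSeq windows of the same length, 3.97% held that element. The windows of Slc1a1, Slc1a2 and Slc1a3 did not hold these letters. The E-box CACGTG was also searched for and was absent from the windows of all 4 members, while 7.15% of all windows held it. The GC box was present 3 times in Slc1a4, once in Slc1a1 and once in Slc1a3, and 35.7% of all windows held it. GC content was 70.3% for Slc1a1 and 65.0% for Slc1a4, against 45.7% for Slc1a2, 45.3% for Slc1a3 and a median of 52.7% over all windows. A match describes these letters and does not show that a factor binds.

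**Figure D1:**
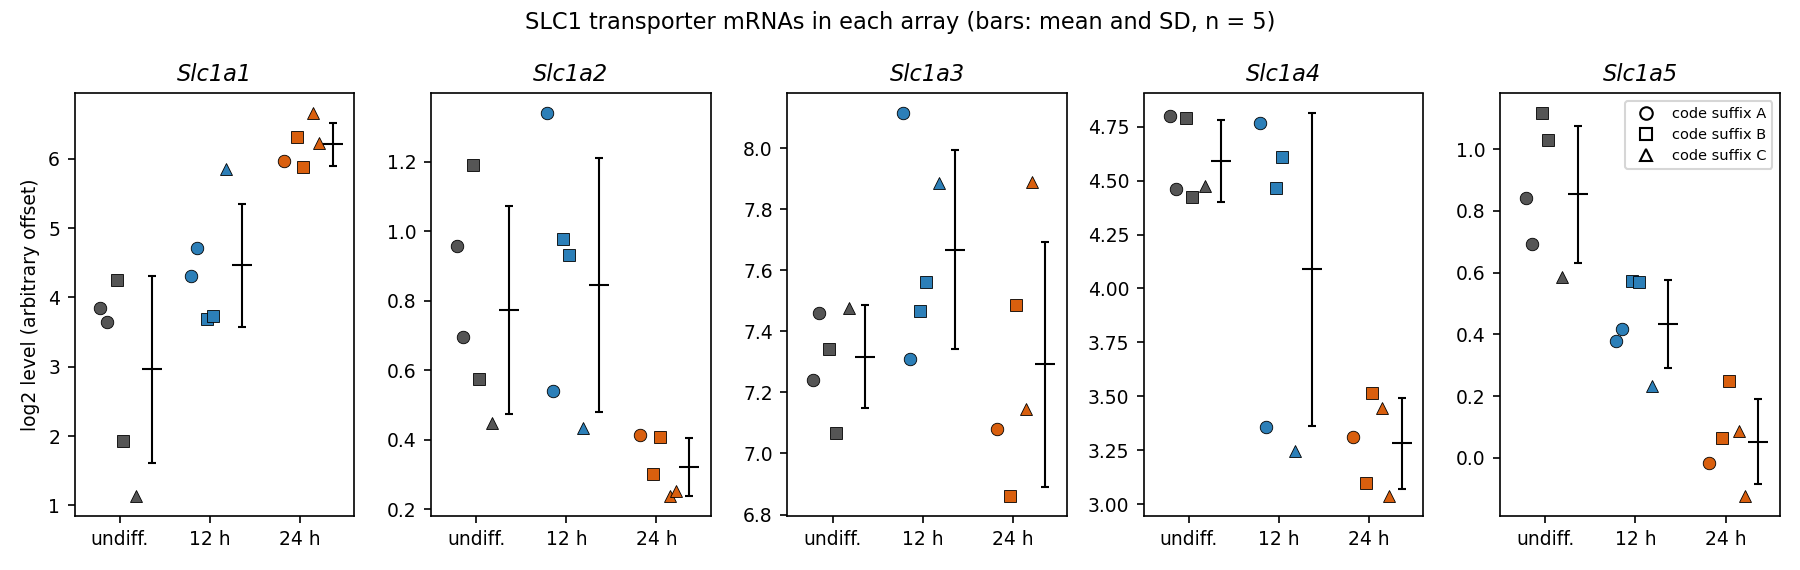
Log2 levels of the probe set used for each of the 5 SLC1 genes (vertical axes, each with its own range) in undifferentiated, 12 h and 24 h cells. Each point is an array, its shape the title code suffix, and bars give the mean and SD of 5 arrays. Slc1a1 lies between 5.88 and 6.67 in all 24 h arrays, above all the others, while Slc1a4 and Slc1a5 lie below the undifferentiated arrays in all 24 h arrays.

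Slc1a1, the glutamate and cysteine transporter, had log2 levels of 3.85, 3.64, 4.25, 1.93 and 1.13 in undifferentiated replicates 1 to 5. At 12 h the levels were 4.31, 4.72, 3.69, 3.73 and 5.86, and at 24 h they were 5.96, 6.31, 5.88, 6.67 and 6.23. The 24 h arrays lay above every array of both other groups, whereas the 12 h and undifferentiated arrays overlapped, and the undifferentiated arrays were the most spread. Group means were 2.96 ± 1.35 in undifferentiated cells, 4.46 ± 0.891 at 12 h and 6.21 ± 0.311 at 24 h (SD, n = 5 each). The difference from undifferentiated cells was 3.25 ± 0.52 on the log2 scale at 24 h (SE). At 12 h the level was 2.83-fold higher than in undifferentiated cells, and 24 h exceeded 12 h by a log2 difference of 1.75 ± 0.52. Both times share the same undifferentiated arrays, so their differences are not independent. At 24 h, 9.04% of 7909 genes were higher with no overlap with undifferentiated cells, and 0.708% were so against 12 h. Slc1a1 was picked for its direction, so nothing is read from these shares.

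Taken suffix by suffix, in the order A, B, C, the 24 h difference of Slc1a1 was 2.22, 3.01 and 5.32, and the 12 h difference was 0.77, 0.62 and 4.73. The highest 12 h array and the lowest undifferentiated array are both those of suffix C. Without undifferentiated replicate 5 the difference was 2.79 at 24 h and 1.04 at 12 h. Slc1a1 has 2 further probe sets. Probe set 1425415_a_at differed by 2.26 ± 0.39 at 24 h and by 1.04 ± 0.39 at 12 h, and 1460386_a_at, the dimmest, by 1.13 ± 0.21 and 0.41 ± 0.21. For each of the 3 probe sets all 24 h arrays lay above all undifferentiated arrays, as did 5.38% of all 20380 probe sets that name a single gene.

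Levels of other cell types moved beside Slc1a1. The summed linear level of 12 oligodendrocyte lineage markers on the array, 11 of them above the expression filter, ran from 986 to 1571 in undifferentiated cells, 974 to 3043 at 12 h and 1375 to 3994 at 24 h. The 12 h array with the highest Slc1a1, replicate 5, had the highest oligodendrocyte sum of its group, 3043 against 974 to 1163 in the others, and also the highest astrocyte sum, 5153 against 1692 to 4512, and neural stem and progenitor sum, 3837 against 1966 to 2817. Undifferentiated replicate 5 went the other way. It had the lowest Slc1a1 of its group, 1.13, with the highest oligodendrocyte and neural stem and progenitor sums, 1571 and 3413. The summed level of 11 neuronal markers, 7 of them above the filter, ran from 47.1 to 95.8 in undifferentiated cells, 35.6 to 75.9 at 12 h and 34.7 to 62.1 at 24 h. Its brightest member, Gap43, named after its values were seen, was at 4.00 on the log2 scale at 24 h, against 5.19 in undifferentiated cells, and did not pass (limma adjusted p = 0.0657). Of the 7 tested, 2 rose and none fell at 24 h, with a median log2 difference of 0.07, so the sum and the single markers did not move alike. The part of these cell types in the Slc1a1 difference was not tested.

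Slc1a2, the main astrocytic glutamate transporter of the adult forebrain, had log2 levels of 0.96, 0.70, 1.19, 0.58 and 0.45 in undifferentiated replicates 1 to 5. They were 1.34, 0.54, 0.98, 0.93 and 0.43 at 12 h, and 0.41, 0.30, 0.41, 0.24 and 0.25 at 24 h. All 24 h arrays lay below every other array, and 12 h and undifferentiated cells overlapped. Group means were 0.77 ± 0.300 in undifferentiated cells, 0.85 ± 0.366 at 12 h and 0.32 ± 0.0837 at 24 h (SD, n = 5 each). The difference from undifferentiated cells was -0.45 ± 0.17 at 24 h and 0.07 ± 0.17 at 12 h (SE). Among 7909 genes, 16% lay lower at 24 h than undifferentiated cells with no overlap, and 2.21% lay lower than 12 h.

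The single probe set of Slc1a2 is dim. Its mean over all arrays was 0.65, just above the filter level of 0.51 on the log2 scale, and its 24 h mean lay below that level. The 24 h difference was -0.41, -0.53 and -0.20 within suffixes A, B and C. Median centring of the arrays gave -0.31 and quantile normalisation -0.36. Markers of astrocytes, the cells Slc1a2 is known from, mostly moved the other way. Of 17 astrocyte markers on the array, 9 rose and 2 fell at 24 h, with Gfap, the astrocyte intermediate filament, up by 3.35 ± 0.67 and Clu, clusterin, by 2.37 ± 0.37 (SE, limma adjusted p = 0.00196 and 0.000420), and Acsbg1, an acyl-CoA synthetase of glia, down by 0.88 ± 0.13 (a log2 difference of -0.88, adjusted p = 0.000337). Of all 7909 genes, 12.7% rose and 19.4% fell at 24 h. The summed astrocyte level ran from 941 to 2465 in undifferentiated cells, 1692 to 5153 at 12 h and 2711 to 7859 at 24 h.

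Slc1a3, the glutamate transporter of radial glia, neural stem cells and astrocytes, had log2 levels of 7.24, 7.46, 7.34, 7.07 and 7.48 in undifferentiated replicates 1 to 5. At 12 h they were 8.12, 7.31, 7.47, 7.56 and 7.89, and at 24 h 7.08, 6.86, 7.49, 7.14 and 7.89. The 3 groups overlapped, and no order of the groups exceeded the spread of their arrays. The difference from undifferentiated cells was -0.03 ± 0.20 at 24 h (SE, 95% interval -0.44 to 0.39, limma adjusted p = 0.933) and 0.35 ± 0.20 at 12 h (-0.07 to 0.77, adjusted p = 0.271). Between 24 h and 12 h it was -0.38 ± 0.20 (adjusted p = 0.381).

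The other 2 probe sets of Slc1a3 did not pass either, in the fit over all 20380 probe sets, of which 19.5% were called at 24 h. Probe set 1452031_at differed by 0.16 ± 0.23 at 24 h (SE, limma adjusted p = 0.688), and 1426341_at by -0.51 ± 0.39 (adjusted p = 0.396). Between 24 h and 12 h, 1426341_at had the largest difference of the gene, -1.18 ± 0.39, with adjusted p = 0.234. The lowest 24 h array on that probe set stood at 2.74, against 4.13 to 5.30 in undifferentiated cells.

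**Figure D2:**
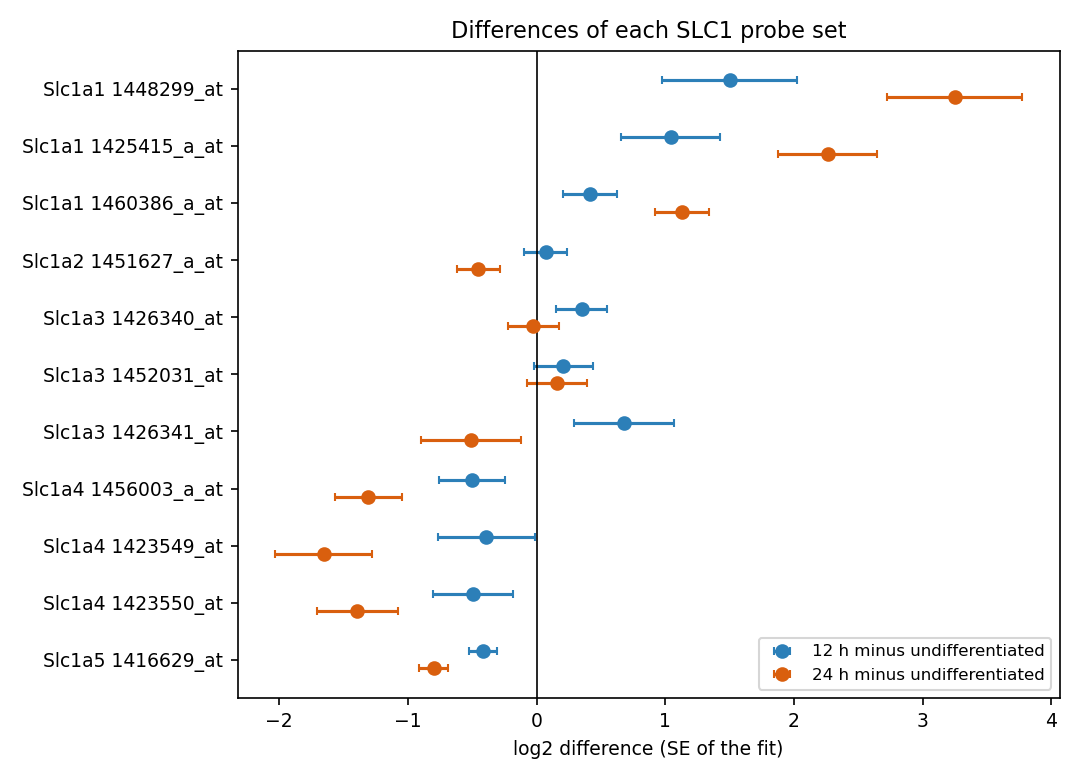
Log2 difference from undifferentiated cells (horizontal axis) at 12 h and 24 h for each of the 11 SLC1 probe sets (rows), with the standard error of the fit as bars. The 3 probe sets of Slc1a1 all lie above 0 and those of Slc1a4 and Slc1a5 below 0 at both times, while the 24 h values of Slc1a3 run from -0.51 to 0.16.

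Slc1a4, the serine and neutral amino acid exchanger, fell at 24 h. Its log2 levels were 4.80, 4.46, 4.79, 4.42 and 4.47 in undifferentiated replicates 1 to 5, then 4.76, 3.36, 4.47, 4.61 and 3.25 at 12 h, and 3.31, 3.10, 3.52, 3.45 and 3.04 at 24 h. The 24 h and undifferentiated arrays were separate by more than the range of either group. The 12 h arrays split, with replicates 1, 3 and 4 among the undifferentiated levels and replicates 2 and 5 among the 24 h levels. The 24 h mean was 3.28 ± 0.211, against 4.59 ± 0.189 in undifferentiated cells (SD, n = 5 each), a difference of -1.31 ± 0.26 (SE, limma adjusted p = 0.00188). At 12 h the mean was 4.09 ± 0.727 and the difference -0.50 ± 0.26 did not pass (adjusted p = 0.231), nor did that between 24 h and 12 h (-0.81 ± 0.26, adjusted p = 0.147), a comparison in which 0.417% of genes were called.

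Both other probe sets of Slc1a4 fell too. Probe set 1423549_at was lower by a log2 difference of -1.66 ± 0.38 at 24 h (SE, limma adjusted p = 0.00698) and 1423550_at by -1.39 ± 0.31 (adjusted p = 0.00634), each with all 24 h arrays below all undifferentiated arrays. Over all 20380 probe sets, 12.9% were called lower at 24 h and 11.3% were lower with no overlap. Within suffixes A, B and C the 24 h difference of the main probe set was -1.32, -1.30 and -1.23, while the 12 h difference was -0.57, -0.07 and -1.23. With the actin ratio as a covariate the 24 h difference was -1.11 ± 0.46 and no longer passed (limma adjusted p = 0.168). With 12 h replicates 3 and 4 both left out, an alternative chosen after seeing the data, the 12 h difference was -0.80 ± 0.27 and passed (adjusted p = 0.0450). Without 12 h replicate 5 that between 24 h and 12 h passed at -1.02 ± 0.23 (adjusted p = 0.0251). Replicates 3 and 4 stood above the 12 h mean and replicate 5 below it, so these omissions widen the differences by themselves. Each comparison passed in only 1 of 28 alternatives with a test, so nothing is read from these passes.

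**Figure D3:**
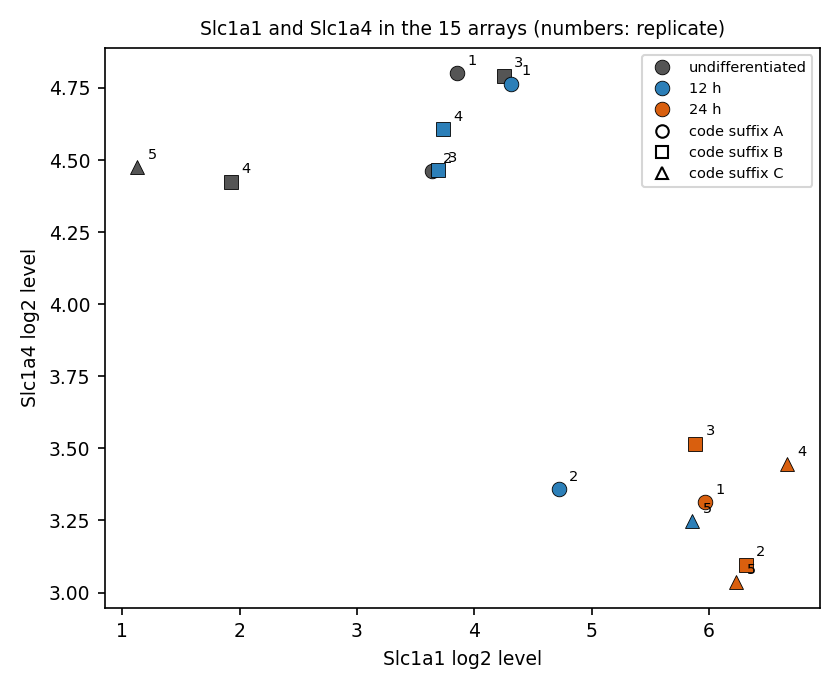
Log2 level of Slc1a4 (vertical axis) against Slc1a1 (horizontal axis) in the 15 arrays, with colour for the group, shape for the title code suffix and the replicate number beside each point. The 12 h replicates 2 and 5 lie at 3.36 and 3.25 for Slc1a4, with the 24 h arrays, and the other 12 h arrays lie at 4.47 to 4.76, with the undifferentiated ones.

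Slc1a5, the glutamine and neutral amino acid exchanger, fell at 24 h too, at low levels. The log2 levels were 0.84, 0.69, 1.12, 1.03 and 0.59 in undifferentiated replicates 1 to 5, then 0.38, 0.42, 0.57, 0.57 and 0.23 at 12 h, and -0.02, 0.07, 0.25, 0.09 and -0.13 at 24 h. Each 12 h and each 24 h array lay below every undifferentiated array, where 3.36% and 11.3% of all probe sets did so, and the 12 h and 24 h arrays overlapped in 1 value of each group. Its mean over all arrays, 0.45, is just under the filter level of 0.51, so it was tested in the fit over all probe sets. The 24 h mean was 0.05 ± 0.138, against 0.85 ± 0.223 in undifferentiated cells (SD, n = 5 each), a difference of -0.80 ± 0.11 (SE, limma adjusted p = 0.000358). The 12 h mean was 0.43 ± 0.143 and the difference of -0.42 ± 0.11 did not pass (adjusted p = 0.0505), where 1.77% of probe sets were called lower. Between 24 h and 12 h the difference was -0.38 ± 0.11 and did not pass (adjusted p = 0.182).

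Slc1a5 differed in the same direction within each suffix, by -0.78, -0.92 and -0.60 at 24 h and by -0.37, -0.50 and -0.35 at 12 h in A, B and C. With the suffix as a block the 12 h difference passed (-0.42 ± 0.07, limma adjusted p = 0.00298), as did that between 24 h and 12 h (-0.36 ± 0.08, adjusted p = 0.0346). Both also passed when arrays with neighbouring title codes were taken as random blocks (adjusted p = 0.00881 at 12 h and 0.0474 between 24 h and 12 h). With the actin ratio as a covariate the 24 h difference did not pass (-0.82 ± 0.20, adjusted p = 0.0972).

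The members also differed in how alike their profiles were over the 15 arrays, measured as the root mean square difference between levels standardised to the same mean and SD. The most alike pairs were Slc1a2 and Slc1a4, at 0.553 SD, and Slc1a4 and Slc1a5, at 0.557 SD. The least alike were Slc1a1 and Slc1a4 and Slc1a1 and Slc1a5, each at 1.81 SD. These distances come from the same arrays that chose the family, with any batches that the labels do not name, so they describe and test nothing. The closest tested genes to Slc1a1 were Unc5c, a netrin receptor, at 0.200 SD, Ppp1r21 at 0.253 SD and Rnd2 at 0.263 SD. The closest to Slc1a4 were Fjx1 at 0.261 SD, Rhbdf1 at 0.331 SD and Itgb5, an integrin subunit, at 0.350 SD. Slc1a5 was closest to Scarb1, the scavenger receptor for HDL, at 0.260 SD, to Fam81a at 0.303 SD and to Fancl, a ubiquitin ligase of the Fanconi anaemia pathway, at 0.338 SD. Profiles near Slc1a2 were more distant, with the protease Htra1 at 0.402 SD, the ligand Wnt7b at 0.437 SD and Chst10 at 0.451 SD. Those near Slc1a3 were Stt3b, a subunit of the oligosaccharyltransferase, at 0.472 SD, Lmbrd1 at 0.580 SD and the ER chaperone Canx at 0.624 SD.

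Genes around SLC1 transport (other amino acid carriers, enzymes, the sodium pump, glutamate receptors, binding proteins, and Myc and ATF4 with their targets) were taken as 7 lists of 132 genes, 75 of them tested. At 24 h 14 rose and 13 fell, 36% of those tested against 32.1% of all genes, and at 12 h 5 rose and 1 fell, 8% against 7.86% (3.3% of all genes higher and 4.56% lower). Their median log2 difference was -0.16 at 24 h and -0.05 at 12 h, against -0.06 and 0.00 over all genes. These shares lie near the background. With the suffix as a block the counts were 17 and 16 at 24 h, 44% against 41.8% of all genes, and 12 and 5 at 12 h, 22.7% against 18.7%.

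**Figure D4:**
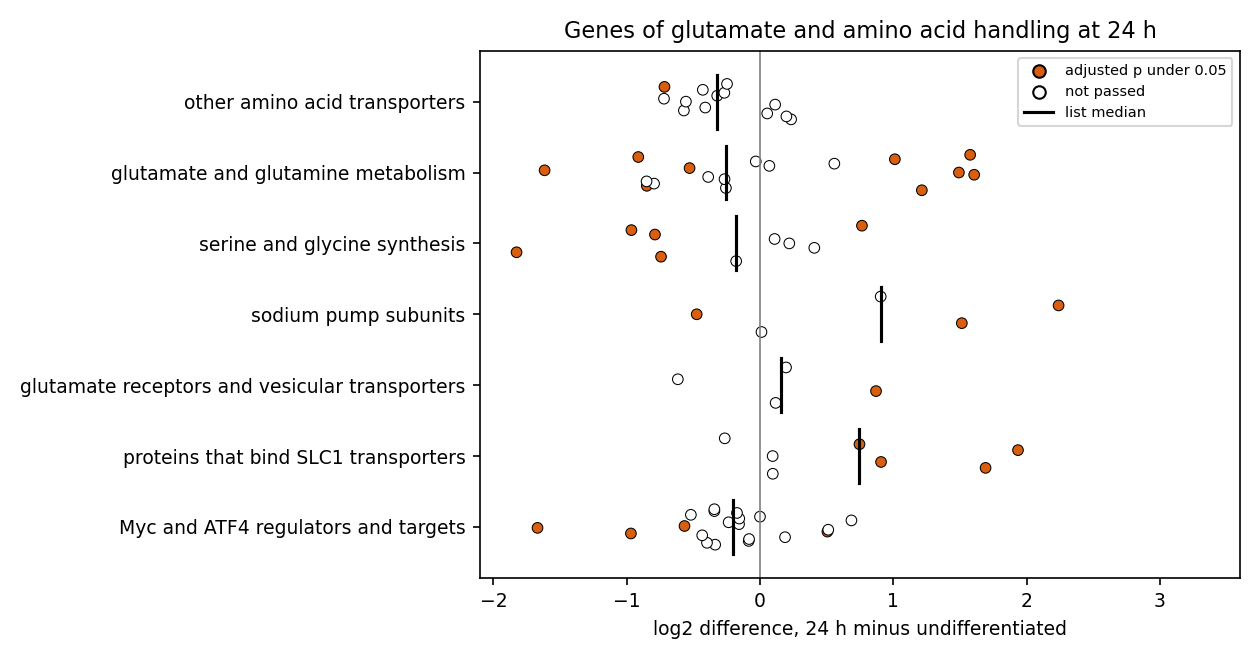
Log2 difference between 24 h and undifferentiated cells (horizontal axis) for each tested gene of the 7 lists (rows), filled where the adjusted p was under 0.05, with a line at each list's median. Of 17 genes of glutamate and glutamine metabolism 5 lie to the right and 4 to the left among the filled points, and the sodium pump list has its median at 0.91.

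Among 17 tested genes of glutamate and glutamine metabolism, 5 rose and 4 fell at 24 h, with a median of -0.26. For this list and those below, 12.7% of all 7909 genes rose and 19.4% fell at 24 h. Glutamine synthetase (Glul), which turns glutamate into glutamine in astrocytes, rose by 1.49 ± 0.17 (SE, limma adjusted p = 7.92e-05) and had already risen by 0.69 ± 0.17 at 12 h (adjusted p = 0.0255). Its mean level was 7.80 at 24 h, against 6.30 in undifferentiated cells. Prodh, which oxidises proline towards glutamate, rose by 1.58 ± 0.24 (adjusted p = 0.000376), also from 12 h on (1.04 ± 0.24, adjusted p = 0.0200), although its undifferentiated mean of 0.16 lay below the filter level. Over all probe sets, with no filter, its adjusted p was 0.000700 at 24 h and 0.0329 at 12 h. Glutamate dehydrogenase (Glud1) rose by 1.61 ± 0.38 (adjusted p = 0.00498). The cytosolic aspartate aminotransferase Got1 fell, with a difference of -1.62 ± 0.33 (adjusted p = 0.00205) and a 24 h mean of 3.30, against 4.91 in undifferentiated cells.

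Of 9 genes of serine and glycine synthesis, 4 fell and 1 rose at 24 h, with a median of -0.18. Mthfd2, a mitochondrial enzyme of folate metabolism, fell with a difference of -1.83 ± 0.41 (SE, limma adjusted p = 0.00406). Gldc, of the glycine cleavage system, fell with -0.74 ± 0.19 (adjusted p = 0.00700), and the hydroxymethyltransferase Shmt1 with -0.79 ± 0.21 at 24 h (adjusted p = 0.00928) and -0.83 ± 0.21 at 12 h (adjusted p = 0.0265). Serine racemase (Srr), which makes D-serine, rose by 0.77 ± 0.19 (adjusted p = 0.00733). Of 13 tested transporters of other families, Slc7a5 alone passed at 24 h, with a difference of -0.72 ± 0.22 (adjusted p = 0.0210). Slc7a5 is the large neutral amino acid carrier LAT1, known to work beside Slc1a5, and its mean was 4.93 at 24 h, against 5.64 in undifferentiated cells. The list had a median of -0.32, and at 12 h limma called 0 of the 13, also at an unadjusted p under 0.05. The Slc7a5 list had 0 calls at 24 h with median centring, without undifferentiated replicate 1, without 24 h replicate 5 and without suffix C, besides file codes and the actin covariate.

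Myc and ATF4 are factors known to drive Slc1a4 and Slc1a5. Of 20 tested regulators and targets of theirs, 3 fell and 1 rose at 24 h and 16 did not pass, with a median of -0.20. Of all 7909 genes, 32.1% were called at 24 h. Each gene was placed in 1 list only, so amino acid genes of the other lists, such as Mthfd2 and Slc7a5 above, are not among the 20. The translation repressor Eif4ebp1 fell with a difference of -1.67 ± 0.32 (SE, limma adjusted p = 0.00162), cystathionase (Cth) with -0.97 ± 0.21 (adjusted p = 0.00346) and the glycyl-tRNA synthetase Gars with -0.57 ± 0.16 (adjusted p = 0.0156). The stress factor Ddit3 rose by 0.51 ± 0.17 (adjusted p = 0.0323). Neither Atf4 (-0.40, adjusted p = 0.104) nor Myc (-0.24, adjusted p = 0.542) passed, both chosen for mention after their values were seen.

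The sodium pump keeps the gradient that drives SLC1 transport. Of 5 tested subunits, 2 rose and 1 fell at 24 h, where 12.7% of all 7909 genes rose and 19.4% fell. These were beta subunits and FXYD regulators, and no catalytic alpha subunit was among them. Fxyd1, the pump regulator phospholemman, rose by 2.24 ± 0.28 (SE, limma adjusted p = 0.000124) and by 0.99 ± 0.28 at 12 h (adjusted p = 0.0416). Its undifferentiated mean of 0.48 lay below the filter level, and over all probe sets, with no filter, the 24 h adjusted p was 0.000206 and the 12 h difference did not pass (adjusted p = 0.0661). The astrocytic beta subunit Atp1b2 rose by 1.51 ± 0.39 (adjusted p = 0.00867), and Atp1b3 fell with a difference of -0.48 ± 0.12 (adjusted p = 0.00752). Of 7 tested proteins known to bind or regulate SLC1 transporters, 4 rose and none fell at 24 h, beside the same shares of all genes. Sgk1, a kinase known to raise SLC1 transport in Xenopus oocytes, rose by 1.94 ± 0.29 (adjusted p = 0.000320), the membrane linker Ezr by 1.69 ± 0.32 (adjusted p = 0.00154), the ubiquitin ligase Nedd4l by 0.91 ± 0.19 (adjusted p = 0.00246) and the scaffold Slc9a3r1 by 0.75 ± 0.26 (adjusted p = 0.0359). Nedd4l and Ezr had also risen at 12 h, by 0.81 ± 0.19 and 1.28 ± 0.32 (adjusted p = 0.0200 and 0.0271). With the actin ratio as a covariate, limma called 0 of the 75 genes at either time, with 23 at an unadjusted p under 0.05 at 24 h and 16 at 12 h.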

How the data were processed

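Per the labels' protocols, total RNA of each sample was extracted with Trizol, labelled with biotin and hybridised to its own array. The authors deposited processed values as a table of 22690 probe sets by 15 arrays. Per the submitters' processing notes the tool was MAS5; version, settings and scaling were not given in the sources used here. Spike-ins bioB, bioC, bioD and cre (1.5, 5, 25 and 100 pM) had a slope of 1.07 ± 0.0655 (SD, 15 arrays) per log10 unit of concentration. The authors' deposited values were on that basis taken to be log10, and multiplying by 3.32 gave log2.

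After control probe sets were removed, 22626 remained. The platform annotation names a single gene for 20380 of them, several for 691 and none for 1555, and 20351 matched GRCm38.p6 by Entrez number. Each gene took its probe set with the highest mean. The expression filter was the 40th percentile of probe set means, 0.51 in log2, which left 7909 of 12393 genes to test. limma 3.58.1 in R 4.3.3 fitted all 15 arrays with a mean per group, a variance trend and Benjamini-Hochberg adjustment, with calls at adjusted p under 0.05. Probe sets not used for a gene, and Slc1a5, come from the same fit over 20380 probe sets. The fit was tested on simulated data.

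The members, lists and alternatives were chosen with earlier results of these data known. Named are all members, up to 4 called genes of each list and time with the smallest p (2 for cell type markers, with Gfap, Glul, Nes, Sox2, Tubb3 and Mbp whatever their result), and the 3 closest profiles of each member. The number of arrays limits the precision.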

Additional observations from a re-analysis of the deposited data

How the results depend on the processing

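At 24 h against undifferentiated cells, the differences of Slc1a1, Slc1a2 and Slc1a4 kept their direction under 31 of 31 alternatives and that of Slc1a5 under 29 of 29 (Slc1a1 and Slc1a2 were chosen for theirs, so this is no support for them); Slc1a4 passed in 26 of 28 with a test and Slc1a5 in 24 of 26. Slc1a3 passed in 0 of 28 in each comparison (limma adjusted p from 0.136 to 0.9999). The exceptions for Slc1a4 and Slc1a5 were groups by file codes (-0.82 and -0.41) and the actin covariate (-1.11 and -0.82). The actin ratios of undifferentiated and 24 h arrays did not overlap, so the covariate fit cannot tell the ratio and the time apart. File codes also gave Slc1a1 0.16 at 12 h and 0.26 at 24 h, and Slc1a2 -0.47 at 12 h.

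The 12 h difference of Slc1a2, 0.07, changed sign without 12 h replicates 3 and 4 (-0.0021), within suffix C (-0.013) and over single arrays left out (-0.053 to 0.18). That of Slc1a5, -0.42, passed with quantile normalisation (-0.42), median centring (-0.41), the suffix block (-0.42), runs of title codes as a random block (-0.42), 12 h replicates 3 and 4 averaged (-0.45) or left out (-0.51), and in some of the single-array omissions (-0.49 to -0.35). Between 24 h and 12 h it passed with the suffix block (-0.36) and the runs (-0.39). Slc1a4 passed at 12 h without 12 h replicates 3 and 4 (-0.80), an alternative chosen after seeing the data, and between 24 h and 12 h in 1 single-array omission (range -1.02 to -0.64). The mean of all probe sets gave Slc1a1 2.21 at 24 h. Within suffix A Slc1a1 was 2.22 at 24 h. Within suffix C, with 1 undifferentiated array, it was 5.32 at 24 h and 4.73 at 12 h, Slc1a4 was -1.23 at 12 h and -0.0064 between 24 h and 12 h, and Slc1a5 was -0.60 at 24 h.

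The counts of the 75 partner genes, 5 higher and 1 lower at 12 h, were less stable than the 14 and 13 at 24 h. At 12 h, higher genes numbered 9 with quantile normalisation, 12 with the suffix block, 11 with the runs, 3 with only the 2 groups in the fit, 8 with replicates 3 and 4 averaged, 12 without them and 1 without suffix C. Lower genes numbered 2 with the mean of probe sets, 5, 4, 2 and 9 under the suffix block, the runs, averaging and omission of replicates 3 and 4, and 0 without suffix C. Over single arrays left out they ran from 0 to 8 and from 0 to 3. At 24 h they were 8 and 4 without suffix C. In limma, file codes and the actin covariate gave 0 in both directions at both times, although unadjusted p fell under 0.05 for 6 and 23 genes at 24 h and for 1 and 16 at 12 h. Of 392 recomputed counts of single lists, 292 stayed within 1.5 times. The cause of these changes was not tested. The labels number no replicates and state no pairs, so no paired analysis was run. Consecutive title codes form 6 runs, and no run holds more than 1 array of a group. The labels do not say whether a run is a matched set of cultures. The fits nearest to a paired analysis were those with the suffix and with these 6 runs as blocks, given above.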

Other observations

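Slc1a6 (EAAT4), the glutamate transporter known from cerebellar Purkinje cells, was the other SLC1 gene on the array and lay below the filter, with a mean over all arrays of 0.20 on the log2 scale. Its 24 h arrays lay from -0.14 to 0.16, against 0.27 to 0.48 in undifferentiated arrays, a difference of -0.31 ± 0.09 (SE, limma adjusted p = 0.0267 over 20380 probe sets). Of those probe sets, 12.9% were called lower at 24 h and 11.3% were lower with no overlap. The other normalisations were not applied to Slc1a6, so a shift of dim probe sets cannot be told from a change of this gene. Slc1a7 was not analysed here. Of 14 genes of glutamate receptors and vesicular transporters on the array, 4 were above the filter. The AMPA receptor subunit Gria2 rose by 0.87 ± 0.27 at 24 h (adjusted p = 0.0237), and the other 3 did not pass. That call was lost with the mean of all probe sets, without suffix C, without undifferentiated replicate 4 or 5 and without 24 h replicate 2, besides file codes and the actin covariate.

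At 24 h 12.7% of all 7909 genes rose and 19.4% fell. Of 13 tested neural stem and progenitor markers 3 rose and 3 fell. Nes, the progenitor filament, fell with a log2 difference of -2.05 ± 0.37 and Hes1, a Notch effector, with -1.72 ± 0.25, while Sox2 rose by 1.03 ± 0.24 and the RNA-binding protein Msi1 by 1.31 ± 0.22 (SE, limma adjusted p = 0.000975, 0.000295, 0.00466 and 0.000687). Of 11 tested oligodendrocyte lineage markers 7 rose, among them Ugt8a by 3.11 ± 0.58, Myrf by 2.19 ± 0.44 and Mbp by 3.53 ± 0.98 (adjusted p = 0.00134, 0.00212 and 0.0125). Of 7 tested neuronal markers 2 rose, Dcx by 1.69 ± 0.36 and Tubb3 by 0.67 ± 0.21 (adjusted p = 0.00275 and 0.0220). Of 15 microglial markers 1 was above the filter, Cd14, which fell with -0.70 ± 0.15 (adjusted p = 0.00286), and of 10 endothelial markers 0 were. Cd14 had a 24 h mean of 0.36, below the filter level, and passed the filter through the other groups, with means of 1.06 in undifferentiated cells and 0.66 at 12 h. Nothing is therefore read from its call. Of 10 pericyte and fibroblast markers 2 were above it, and Pdgfrb rose by 1.97 ± 0.23 (adjusted p = 7.96e-05). Both ependymal markers on the array rose, Foxj1 by 1.51 ± 0.25 and Rsph1 by 0.34 ± 0.09 (adjusted p = 0.000649 and 0.00786). Pdgfrb and Rsph1 had undifferentiated means of -0.24 and 0.43, below the filter level, and passed the filter through the 24 h arrays; over all probe sets, with no filter, their adjusted p at 24 h was 0.000134 and 0.00726.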
